A study of Mus musculus with 4 samples.

Results

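Macrophage RNA was counted in single-cell libraries of sorted regulatory T cells (Treg cells), and 92 of 20294 barcodes (0.453%) carried it. A barcode stands for 1 droplet. The barcodes were chosen by their own counts: at least 500 genes, at most 10% mitochondrial UMIs (unique molecular identifiers, each counted as 1 captured RNA molecule), and at least 3 UMIs summed over Lyz2, C1qa, C1qb and C1qc. Those 4 genes therefore describe the choice and are no result. The other barcodes that passed the same limits on genes and mitochondrial UMIs are called the rest.

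The libraries held CD4+ Foxp3GFP+ cells from mouse liver and spleen at 7 weeks and at 12 days of age. The 7-week mice carry the stage label "aged", and the 12-day mice are labelled neonatal. The protocol in the labels names C57BL/6 mice tagged with Foxp3GFP for all samples, and the design text names Foxp3GFP-Cre Rosa26loxP-Stop-loxP-YFP mice for the 12-day group, in which Foxp3 drives Cre and Cre switches on YFP; the genotype of the 7-week group is given no further. Lymphocytes were enriched on CD4 (L3T4) Microbeads, sorted by flow cytometry for GFP, and made into libraries with a 10x Genomics 5′ kit. CD4 is the protein on which the beads select, and GFP marks cells that express Foxp3, the transcription factor of Treg cells. Each tissue and age had 1 library, the number of mice in a library is not stated, and no difference below has a replicate check. All intervals are 95% intervals that cover counting error only.

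Macrophages are tissue cells that engulf dying cells, aged red cells and particles. Lyz2 encodes lysozyme, which breaks bacterial cell walls, and C1qa, C1qb and C1qc encode the chains of C1q, the protein that starts the classical complement cascade. Monocytes and neutrophils also express Lyz2, whereas C1q is made mainly by macrophages and some dendritic cells. In the spleen, red pulp macrophages take up aged red cells and recycle their iron, and marginal zone macrophages trap particles from the blood. Kupffer cells are the resident macrophages of the liver.

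The promoters of the rule's genes are shown because these genes were counted together in the same barcodes. RefSeq on GRCm38.p6 gave 3 of the 4, each from 250 bases before to 50 bases after the gene's start on the minus strand, written 5′ to 3′; C1qa had no entry in the table used. They lie at chr10:117282223-117282522 for Lyz2, chr4:136886151-136886450 for C1qb and chr4:136892865-136893164 for C1qc. Capitals mark the motif AGGAAGT, read here on its other strand. It contains the GGAA core that ETS-family factors bind, among them PU.1, the myeloid factor encoded by Spi1.
Lyz2: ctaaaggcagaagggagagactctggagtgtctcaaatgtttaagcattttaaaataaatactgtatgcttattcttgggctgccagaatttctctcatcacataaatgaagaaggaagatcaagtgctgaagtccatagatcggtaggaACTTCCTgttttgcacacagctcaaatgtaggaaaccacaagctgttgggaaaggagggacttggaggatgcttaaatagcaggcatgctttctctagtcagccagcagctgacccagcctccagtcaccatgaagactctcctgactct
C1qb: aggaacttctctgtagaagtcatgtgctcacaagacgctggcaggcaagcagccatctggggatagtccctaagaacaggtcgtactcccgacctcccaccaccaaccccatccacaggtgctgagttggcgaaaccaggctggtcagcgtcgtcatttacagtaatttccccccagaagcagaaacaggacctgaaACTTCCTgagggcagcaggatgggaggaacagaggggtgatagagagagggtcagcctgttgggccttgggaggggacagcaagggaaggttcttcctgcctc
C1qc: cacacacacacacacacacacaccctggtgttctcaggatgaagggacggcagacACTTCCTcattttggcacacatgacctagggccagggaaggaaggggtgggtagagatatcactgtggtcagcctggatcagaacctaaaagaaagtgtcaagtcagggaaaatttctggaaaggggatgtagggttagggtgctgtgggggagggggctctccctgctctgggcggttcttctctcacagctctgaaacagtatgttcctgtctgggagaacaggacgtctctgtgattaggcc

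The motif AGGAAGT stood in all 3 promoters on the reverse strand, 93 bases before the start of Lyz2, 46 before that of C1qb and 188 before that of C1qc. Of the 32851 promoters in the table, 9.35% held it on either strand. It was searched after the sequences had been read. Among the genes with the highest ratios in neonatal spleen it stood in 1 of 9 promoters in the table (Fcna), and among those with the lowest in 1 of 7 (Igf2r). The motif searched first, GAGGAAG, overlaps it by 6 letters; it stood in 1 of the 3 promoters (C1qc), in 3 of those 9, in 1 of those 7 and in 13.6% of all promoters. A match of letters is a description and not a binding site. The distances above are to the RefSeq starts, and the starts of the gene spans given below, from another annotation, differ from them.

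Barcodes with macrophage RNA numbered 2 of 2424 in 7-week liver (0.0825%, exact binomial interval 0.00999 to 0.298), 23 of 6024 in 7-week spleen (0.382%, 0.242 to 0.572), 9 of 5668 in neonatal liver (0.159%, 0.0726 to 0.301) and 58 of 6178 in neonatal spleen (0.939%, 0.714 to 1.21). Neonatal spleen thus held 63% of them, and at each age the spleen library had a larger share than the liver library. The neonatal libraries were also deeper: the rest had a median of 2663 UMIs in 7-week liver, 2935 in 7-week spleen, 4444 in neonatal liver and 4538 in neonatal spleen. After every barcode was thinned to 1000 UMIs, the counts were 1, 9, 3 and 16 in that order. The sums over the 4 genes lay close to the limit in many barcodes: 1, 9, 3 and 15 had exactly 3 UMIs, while 1, 10, 2 and 19 barcodes of the rest had 2 UMIs.

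**Figure D1:**
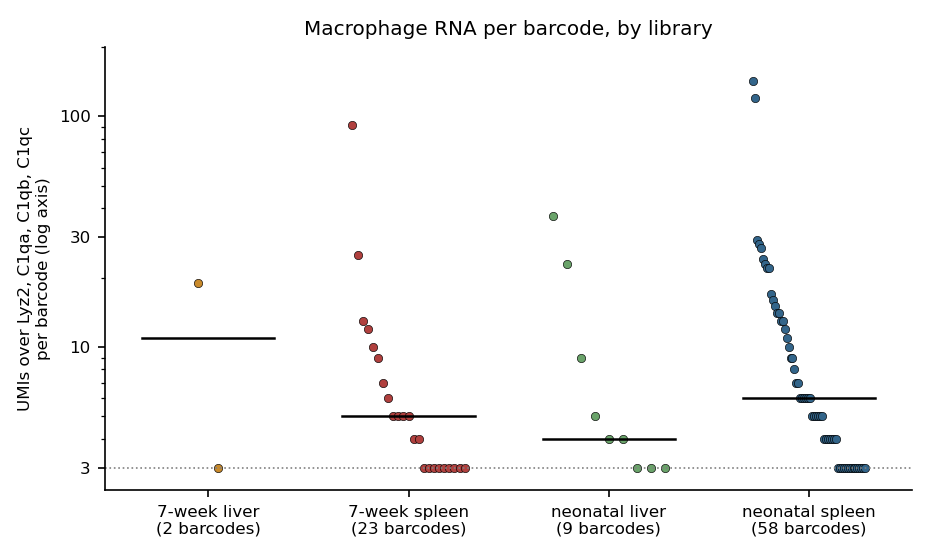
UMIs summed over Lyz2, C1qa, C1qb and C1qc in each chosen barcode (log axis), by library, with a bar at the median and a dotted line at the limit of 3. The medians are 11 in 7-week liver, 5 in 7-week spleen, 4 in neonatal liver and 6 in neonatal spleen, and the highest barcode of neonatal spleen reaches 142 UMIs.

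Most of these barcodes held C1q RNA, and fewer held Lyz2 RNA. Of the 92 barcodes, 39 had UMIs of both, 48 had C1q without Lyz2 and 5 had Lyz2 without C1q. All 3 C1q genes were present in 42 barcodes and all 4 genes in 19. In neonatal spleen, C1qa was counted in 47 of the 58 barcodes (148 UMIs), C1qb in 46 (119 UMIs), C1qc in 42 (114 UMIs) and Lyz2 in 28 (370 UMIs). Lyz2 was uneven: 3 barcodes held 252 of its 370 UMIs (68.1%) in neonatal spleen, and 3 barcodes held 76.9% of its 143 UMIs in 7-week spleen. The rest of neonatal spleen held 18 UMIs of Lyz2, 25 of C1qa, 41 of C1qb and 25 of C1qc, in 1.47% of its barcodes.

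The genes of the rule lie apart in the genome. On GRCm38, Lyz2 spans chr10:117277331-117282321, next to its near-identical neighbour Lyz1, which had no UMI in any chosen barcode. C1qb (chr4:136880129-136886187), C1qc (chr4:136889804-136893065) and C1qa (chr4:136895917-136898803) form a cluster on chromosome 4, all on the minus strand. Reads that match both lysozyme genes may be left out of the counts or placed on the wrong gene.

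Nearly all of these barcodes also held T cell RNA. At least 1 UMI of Cd3d, Cd3e or Cd3g, the CD3 chains of the T cell receptor complex, was counted in 83 of the 92 barcodes (90.2%), against 20026 of 20202 barcodes of the rest (99.1%). The 9 without one were 2 in 7-week spleen and 7 in neonatal spleen. All 92 held at least 1 UMI of a macrophage, marginal zone, red pulp, Kupffer cell or Fc receptor list that leaves out the 4 genes of the rule, as did 12467 barcodes of the rest. By this count both kinds of RNA lay in 83 of the 92 barcodes, and in 12385 of the 20202 barcodes of the rest. A single UMI of these lists is thus common in the rest and does not by itself mark macrophage RNA.

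A list of 15 T cell genes (the CD3 chains, T cell receptor constant regions, CD4 and signalling genes such as Lck and Lat) was summed as a share of all UMIs, scaled to 1000000 (CPM), over the barcodes of a library. It came to 7892 CPM in the chosen barcodes and 8646 CPM in the rest of 7-week liver. In 7-week spleen the levels were 8924 CPM and 8856 CPM, a ratio of 1.01 (0.937 to 1.08). In neonatal liver they were 7222 CPM and 8635 CPM. In neonatal spleen they were 7960 CPM and 9107 CPM, a ratio of 0.874 (0.842 to 0.907). The T cell list was thus close to the rest in 7-week spleen and below it in neonatal spleen, and none of its 15 genes was 2-fold apart in either spleen library.

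Single T cell genes of neonatal spleen lay on both sides of the rest. Cd3e stood at 1275 CPM in the chosen barcodes (457 UMIs in 50 of 58) and 1349 CPM in the rest. Cd3g stood at 990 and 1201 CPM, and Lat, an adaptor of receptor signalling, at 379 and 516 CPM (ratio 0.735). Cd4, the gene of the bead selection, was at 153 and 143 CPM, and Trac, the constant region of the receptor's alpha chain, at 209 and 194 CPM. Trbc1 and Trbc2 are near-identical copies, and reads that match both may be left out or misplaced.

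The genes that mark Treg cells were present as well. Foxp3, the gene of the sort, was at 333 CPM in chosen barcodes and 430 CPM in the rest of 7-week spleen, and at 379 and 410 CPM in neonatal spleen, where 36 of the 58 barcodes held a UMI. In neonatal liver Foxp3 was at 351 CPM (18 UMIs) and 438 CPM. A list of 10 Treg genes came to 4081 and 4046 CPM in 7-week spleen (ratio 1.01, 0.905 to 1.12) and to 4150 and 3940 CPM in neonatal spleen (1.05, 1.0 to 1.11). That last ratio was below 1 under 3 of the alternatives given in the closing section. Among the members of the list in neonatal spleen, Tnfrsf4 (OX40) was at 912 and 724 CPM, Tnfrsf18 (GITR) at 594 and 483 CPM, and Il2ra, the interleukin-2 receptor alpha chain, at 145 and 191 CPM.

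At equal depth, shares of barcodes with T cell genes differed by gene and library. With each barcode thinned to 1000 UMIs, Cd3e was seen in 52.7% (38.8 to 66.3) of 55 chosen barcodes and in 73.7% (72.6 to 74.9) of 5798 others; 3 and 322 shallower barcodes were left out, and the unthinned shares were 86.2% and 95.4%. Cd3g was seen in 61.8% (47.7 to 74.6) and 69.2% after thinning, Trbc2 in 47.3% (33.7 to 61.2) and 50.1%, Trac in 20% (10.4 to 33) and 17.2%, and Foxp3 in 30.9% (19.1 to 44.8) and 32.0% (30.8 to 33.2). Unthinned, the shares were 81% and 94.9% for Cd3g, 70.7% and 82.3% for Trbc2, 55.2% and 50% for Trac, and 62.1% and 69.6% for Foxp3. After thinning, among these 5 genes, the intervals of chosen and other barcodes lay apart for Cd3e alone. They also lay apart for Il2ra, seen in 5.45% (1.14 to 15.1) and 16.4% (15.4 to 17.3), and in 31% and 44.4% unthinned. Cd4, Ikzf2 and Ctla4 were lower in chosen barcodes after thinning, with overlapping intervals. In 7-week spleen, Trbc2 was seen in 71.4% (47.8 to 88.7) of 21 chosen barcodes and 45.8% (44.5 to 47.1) of 5913 others, and Ikzf2, a Treg transcription factor, in 66.7% (43 to 85.4) and 33.6% (32.4 to 34.8), while Cd3e was seen in 57.1% (34 to 78.2) and 70.8%; 2 and 88 barcodes were left out. Unthinned, the 7-week shares were 82.6% and 73.3% for Trbc2, 82.6% and 60.9% for Ikzf2, and 87% and 94.1% for Cd3e. Foxp3 was seen there in 14.3% (3.05 to 36.3) and 33.2% (32 to 34.4) after thinning, and in 52.2% and 63.6% before it. Cd4 and Ctla4 were also lower after thinning, and Cd3g, Trac and Il2ra higher, all with overlapping intervals. In neonatal spleen, Apoe, a macrophage gene outside the rule, was seen in 32.7% and 0.535% after thinning and in 60.3% and 2.09% before it. The rest was limited by the rule to 2 or fewer UMIs of the 4 genes, so the shares of Apoe describe the choice.

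The barcodes differed widely in how much of each RNA they held. In neonatal spleen, 14 of 58 chosen barcodes (24.1%) lay under the 5th percentile of the rest in T cell RNA; the counts were 0 of 2 in 7-week liver, 3 of 23 in 7-week spleen and 1 of 9 in neonatal liver. At least 3 UMIs of the T cell list were counted in 84 of the 92 barcodes: 2, 22, 9 and 51 by library. The other 8 were 1 barcode of 7-week spleen and 7 of neonatal spleen. This division was made after the values were seen, so it is a description.

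**Figure D2:**
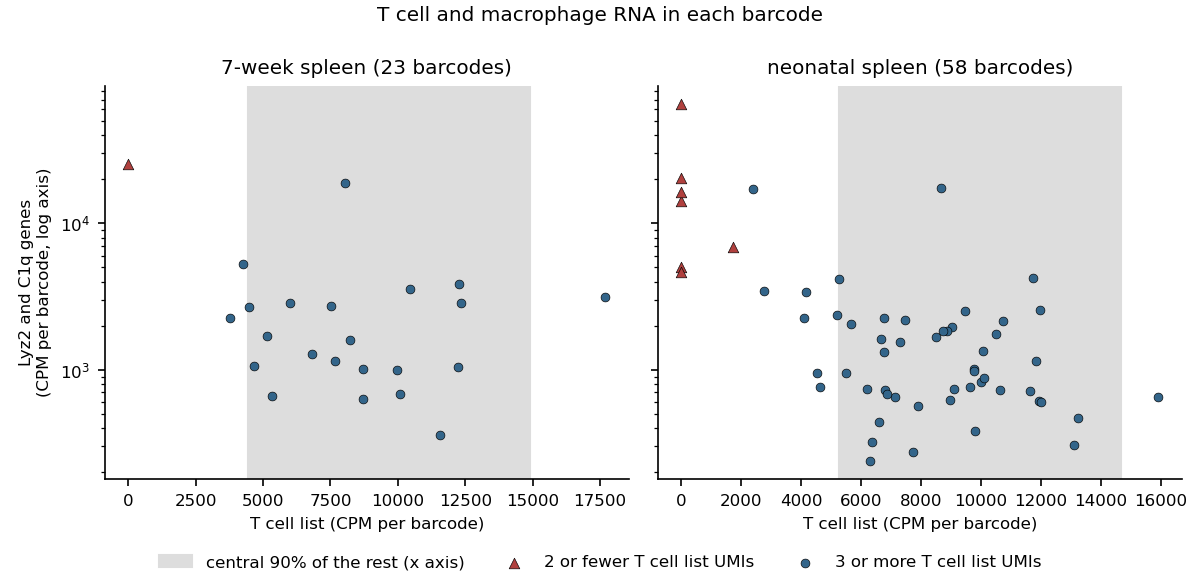
Level of the T cell list (x axis, CPM) and of the 4 macrophage genes (y axis, CPM, log axis) in each chosen barcode of 7-week spleen (left) and neonatal spleen (right); the grey band is the central 90% of the rest, and red triangles are the 1 and 7 barcodes with 2 or fewer T cell UMIs. Most circles lie inside the band. The triangles lie at or below 1717 CPM on the T cell axis and at or above 4651 CPM on the macrophage axis.

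The 7 barcodes of neonatal spleen with 2 or fewer T cell UMIs held high levels of macrophage RNA. They were small, with a median of 1362 UMIs (796 to 2170). Their T cell list came to 205 CPM, against 9107 CPM in the rest, and they held no UMI of Cd3e, Cd3d, Cd3g, Trac, Trbc2, Cd4, Foxp3, Ikzf2 or Il2ra; at their depth a count of 0 allows up to 307 CPM. Ctla4 and Lck had 1 UMI each. Their pan-macrophage list, which leaves out the 4 genes of the rule, stood at 17693 CPM, against 184 CPM in the rest. Apoe had 49 UMIs and Hmox1, heme oxygenase, had 61 UMIs in the same barcodes. Actb, a gene of all cells, was at 14318 CPM there and 14645 CPM in the rest.

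The other 51 barcodes of neonatal spleen held both. They had a median of 5105 UMIs and a T cell list at 8177 CPM, 0.898 of the rest (0.865 to 0.932). Their pan-macrophage list was at 1376 CPM (7.46 times the rest), their red pulp list at 854 CPM (10.9 times) and their Kupffer cell list at 341 CPM (114 times). The Treg list was at 4261 CPM, 1.08 times the rest (1.03 to 1.14). Macrophage RNA made up a small part of these barcodes: the 4 genes of the rule came to 1520 CPM, against 22602 CPM in the 7 barcodes with almost no T cell RNA.

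The strongest barcodes show both kinds. In neonatal spleen the highest had 142 UMIs of the 4 genes, 129 of them Lyz2, among 2170 UMIs, with 67 pan-macrophage UMIs and no T cell UMI. The next had 120 UMIs of the 4 genes, 108 of them Lyz2, among 6922 UMIs, with 26 pan-macrophage UMIs and 60 T cell UMIs. In 7-week spleen the highest barcode, with 92 UMIs of the 4 genes among 4851, held 39 T cell UMIs, while the next, with 25 among 978, held none. High macrophage counts therefore came with T cell RNA in some barcodes and without it in others.

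T cell RNA did not follow the raw macrophage count in a simple order. Raw counts also depend on a barcode's depth. As a share of UMIs, the 4 genes stood at 4651 CPM or above in all 7 neonatal spleen barcodes with 2 or fewer T cell UMIs. Another barcode, with 17336 CPM of the 4 genes, held the T cell list at 8668 CPM. In neonatal spleen the T cell list was at 10169 CPM in the 22 barcodes with 3 or 4 UMIs of the 4 genes, 6941 CPM in the 17 with 5 to 9, and 7412 CPM in the 19 with 10 or more. The pan-macrophage list in the same groups was at 1045, 1107 and 3289 CPM. Among barcodes of the rest with 0, 1 and 2 UMIs (6030, 71 and 19 barcodes) it was at 180, 398 and 674 CPM. The groups of 17 and 19 barcodes are thin.

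Macrophage genes outside the rule had the highest ratios over the rest. A gene was called by size alone, where the group with more of it had a level of 25 CPM or above and 10 or more UMIs and the ratio reached 2. In neonatal spleen, 210 of the 5156 genes that met these minimums (4.07%) stood 2-fold or more above the rest and 101 (1.96%) 2-fold or more below it; in 7-week spleen, 85 of 3396 (2.50%) were higher and 694 (20.4%) lower. The many lower genes of 7-week spleen depended on the minimum: where 10 UMIs were required at the higher level in the group with fewer UMIs, 85 of 1431 (5.94%) were higher and 42 (2.94%) lower. These comparisons use the barcodes that the 4 genes selected, so nothing is read from the shares. The liver libraries, with 2 and 9 barcodes, were not compared gene by gene.

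In neonatal spleen, 12 of 13 measured pan-macrophage genes of 18 listed were at least 2-fold higher. The list came to 1821 CPM in the chosen barcodes and 184 CPM in the rest, a ratio of 9.88 (9.10 to 10.7), and its measured genes had a median log2 ratio of 6.17, against 0.02 over all genes measured. Ctss, cathepsin S, made up 133 CPM of the level in the rest. Apoe, which carries lipids, had 162 UMIs in 35 barcodes, 452 CPM against 4.40 CPM in the rest (103 times, 81.5 to 129). Fcer1g and Tyrobp, signalling adaptors of myeloid receptors, stood at 307 and 3.42 CPM and at 276 and 7.02 CPM. Csf1r, the receptor for macrophage colony-stimulating factor, was at 50.2 CPM (18 UMIs) and 0.277 CPM. Adgre1, which encodes F4/80, had 11 UMIs. Spi1, which encodes PU.1, had 22 UMIs in 13 barcodes.

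Genes of red pulp macrophages were among the highest ratios. The list came to 1091 CPM in chosen barcodes and 78.4 CPM in the rest of neonatal spleen (13.9, 12.5 to 15.5), and 7 of its 8 measured genes of 10 listed were at least 2-fold higher. Vcam1, an adhesion molecule, was at 153 CPM (55 UMIs in 27 barcodes) and 0.677 CPM, 227 times the rest (136 to 390). Hpgd, which degrades prostaglandins, was at 103 and 0.831 CPM. Slc40a1, the iron exporter ferroportin, was at 114 and 1.08 CPM. Spic, a transcription factor that red pulp macrophages need in mice, had 10 UMIs, and Mrc1, the mannose receptor, had 13 UMIs. Of the defining genes, Cd163 had only 2 UMIs and Treml4 only 5.

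The Kupffer cell list stood at 443 and 2.99 CPM in the same library, a ratio of 149 (115 to 193). Its 5 measured genes, Timd4, Cd5l, Fcna, Slc40a1 and Marco, were all at least 2-fold higher, while Clec4f, the gene most particular to Kupffer cells in mice, and Folr2 had no UMI, where a count of 0 allows up to 8.37 CPM. Fcna encodes ficolin A, a lectin of the complement system, and had 64 UMIs in 25 barcodes (179 and 0.893 CPM). Marco, a scavenger receptor also made by marginal zone macrophages, had 25 UMIs in 11 barcodes (69.7 and 0.646 CPM). Of the marginal zone list, Marco and the nuclear receptor gene Nr1h3 were higher, and Cd209b and Siglec1 had no UMI.

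Iron and heme genes were higher with them. The list came to 6674 CPM in chosen barcodes and 2630 CPM in the rest of neonatal spleen (2.54, 2.44 to 2.64), with 7 of 9 measured genes of 14 listed at least 2-fold higher. Hmox1, which breaks down heme, was at 522 CPM (187 UMIs in 36 barcodes) and 10.3 CPM, a ratio of 50.7. Ftl1 and Fth1, the ferritin chains that store iron, were at 2767 and 1171 CPM and at 2786 and 1306 CPM; pseudogenes of both can share their reads. Blvrb, a biliverdin reductase, was at 126 and 24.7 CPM, and Trf, transferrin, at 134 and 1.82 CPM. Hebp1, a heme-binding protein, was at 181 and 2.43 CPM.

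Ftl1 and Fth1 also varied most like the rule's genes among the chosen barcodes. Over the 58 barcodes of neonatal spleen and 4047 genes, Spearman's rho with the share of UMIs from the 4 genes was 0.72 for Ftl1, 0.69 for Fth1, 0.64 for Tyrobp, 0.64 for Hebp1 and 0.62 for Gpx1, which encodes a glutathione peroxidase. The barcodes share 1 library and differ in depth, so these are descriptions with no test.

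Lysosomal genes differed less in sum, and the rest held many of them. The list was at 4582 and 2929 CPM (1.56, 1.49 to 1.64), with 10 of 22 measured genes of 25 listed at least 2-fold higher. Ctsb, cathepsin B, was at 736 and 264 CPM, Psap, prosaposin, at 600 and 236 CPM, and Grn, progranulin, at 156 and 25.4 CPM. Cd63, a membrane protein of late endosomes, had 21 UMIs in 7 barcodes. Lipid genes were at 851 and 203 CPM, with Apoe, Nr1h3 and Pltp, a phospholipid transfer protein, higher among 6 measured of 12.

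Receptors and complement genes followed. A list of antibody receptor genes and the adaptor gene Fcer1g came to 396 and 5.72 CPM (69.2, 55.2 to 86.5). All 3 measured genes of 6 listed (Fcer1g, Fcgrt, Fcgr3) were higher, and Fcgr2b and Fcgr4 had no UMI. Fcer1g, which is also in the pan-macrophage list, held 110 of the 142 UMIs. Phagocytic receptors were at 326 and 57.7 CPM (5.66), with Axl, Timd4, Marco and Mrc1 higher among 5 measured of 14. Of the complement list, Cfp (properdin, 109 and 1.63 CPM) and Cfb (factor B) were higher, and 3 of 15 were measured. Myeloid transcription factors were at 421 and 139 CPM, with 4 of 6 measured genes of 12 listed at least 2-fold higher, among them Spi1, Spic and Nr1h3. Igf1, insulin-like growth factor, and Clec4n, the lectin dectin-2, were at 58.6 and 0.339 CPM and at 55.8 and 0.246 CPM. Il1b, Il6, Ccl2, Ccl3 and Ccl4, genes of inflammatory cytokines and chemokines, had no UMI in the chosen barcodes of neonatal spleen, while Il18 had 24.

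**Figure D3:**
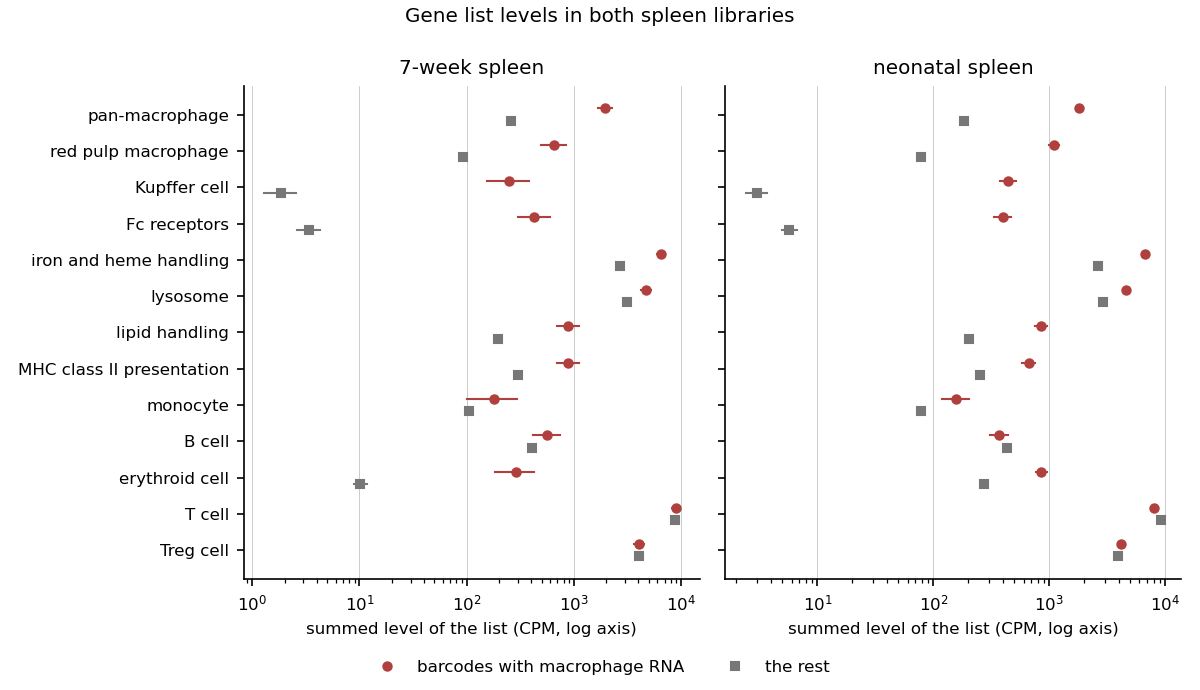
Summed levels of 13 gene lists (CPM, log axis) in the chosen barcodes (circles) and in the rest (squares), with 95% counting intervals, for 7-week spleen (left) and neonatal spleen (right). The T cell and Treg lists lie close in chosen barcodes and the rest. The T cell list of neonatal spleen is lower in the chosen barcodes (7960 and 9107 CPM). The macrophage, Fc receptor and Kupffer cell lists lie far higher in the chosen barcodes.

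The 7-week spleen barcodes showed the same lists at smaller depth. The pan-macrophage list was at 1951 CPM in chosen barcodes and 259 CPM in the rest (7.52, 6.40 to 8.79), with Apoe, Fcer1g and Tyrobp higher among 4 measured of 18. Apoe was at 583 CPM (49 UMIs in 14 barcodes) and 3.04 CPM. The red pulp list was at 654 and 92.6 CPM (7.07) and the Kupffer cell list at 250 and 1.84 CPM (136). The iron list was at 6497 and 2696 CPM (2.41), with Hmox1, Ftl1, Fth1 and Blvrb higher and Blvra (1 UMI) lower among 5 measured of 14. Ctsb was at 785 and 283 CPM, and Cd74, the chaperone of MHC class II, at 571 and 150 CPM.

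The liver barcodes were few and uneven. In neonatal liver, 9 barcodes had 187 pan-macrophage UMIs (3650 CPM, against 195 CPM in the rest), with 62 of Apoe, 32 of Tyrobp and 27 of Fcer1g. Spic and Vcam1 had no UMI there, and the Kupffer cell list had 9 UMIs (176 and 1.16 CPM), of which Clec4f had 3. 1 barcode held 36 Apoe and 17 C1qc UMIs. Another, with 10982 UMIs, had 9 of Lyz2, none of C1q and 179 of Cd74, and 76 UMIs of the monocyte list, so its content went against the macrophage name. That barcode held 59 of the 187 pan-macrophage UMIs, 20 of the 32 of Tyrobp and 21 of the 27 of Fcer1g. It held none of Apoe. In 7-week liver, 2 barcodes had 14 pan-macrophage UMIs, 8 of them Apoe, and none of the Kupffer cell list. C1q RNA in most barcodes follows from the rule and says nothing for the macrophage name. Apoe, outside the rule, was counted in 35 of 58 chosen barcodes of neonatal spleen and 14 of 23 of 7-week spleen. Lyz2 alone named 5 of the 92.

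Markers of other cells moved with the macrophage genes to different extents, and their part in the results was not tested. In neonatal spleen, MHC class II genes were at 669 and 255 CPM (2.63), with 1 barcode holding 49.6% of the list's UMIs; without it the level was 339 CPM (1.33, 1.1 to 1.59). Monocyte genes were at 156 and 77.6 CPM (2.01), with Ccr2 and Ms4a6c higher and Fn1, Vcan and Chil3 at 0. B cell genes were at 371 and 429 CPM, with Cd79a and Ms4a1 at 0. Of 13 neutrophil genes, 2 had a UMI, and S100a8 and S100a9 were at 0. The hepatocyte list was higher through Trf alone, since Alb, Apoa1 and Ttr had no UMI, and plasma and mast cell lists were at 0.

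Red cell RNA was higher in the chosen barcodes of neonatal spleen. The erythroid list came to 856 CPM (307 UMIs) in neonatal spleen, where 34 of 58 chosen barcodes and 363 of 6120 others held a UMI. In the rest, 1 barcode held 8026 of the list's 8980 UMIs; with it the rest stood at 276 CPM (ratio 3.10, 2.76 to 3.47) and without it at 29.4 CPM (29.2, 25.5 to 33.2). Without the 2 chosen barcodes that held most of them, neonatal spleen stood at 617 CPM (2.23, 1.94 to 2.56, against the rest at 276 CPM). In 7-week spleen the levels were 286 CPM (24 UMIs) and 10.2 CPM, but 2 of the 23 barcodes held 22 of those UMIs, and without them the level was 27.9 CPM (2.73, 0.329 to 10). In neonatal liver 1 UMI was counted. Most were haemoglobin UMIs, with 184 of Hbb-bs in neonatal spleen. Hbb-bs and Hbb-bt are close copies of each other, as are Hba-a1 and Hba-a2, and reads that match both copies may be left out or misplaced. Its part in the other results was not tested.

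Barcodes that held macrophage genes were compared with the most similar others, the 73 barcodes of the neonatal spleen rest with at least 10 UMIs of the MHC class II genes H2-Aa, H2-Ab1, H2-Eb1 and Cd74. The pan-macrophage list was at 1821 CPM in the barcodes with macrophage RNA and 1218 CPM in those with MHC class II RNA. The T cell list was at 7960 and 6874 CPM. Apoe was counted in 60.3% of barcodes with macrophage RNA and 1.37% of those with MHC class II RNA, and Vcam1 in 46.6% of the first and in none of the 73. Fcer1g was counted in 58.6% and 27.4%, and Tyrobp in 67.2% (53.7 to 79) and 24.7% (15.3 to 36.1). After thinning to 1000 UMIs (55 and 50 barcodes), Apoe was seen in 32.7% and in 0% (exact upper limit 7.11%), but Fcer1g in 21.8% and 16% and Tyrobp in 25.5% and 26%. The intervals of Fcer1g and of Tyrobp overlapped between these barcodes.

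**Figure D4:**
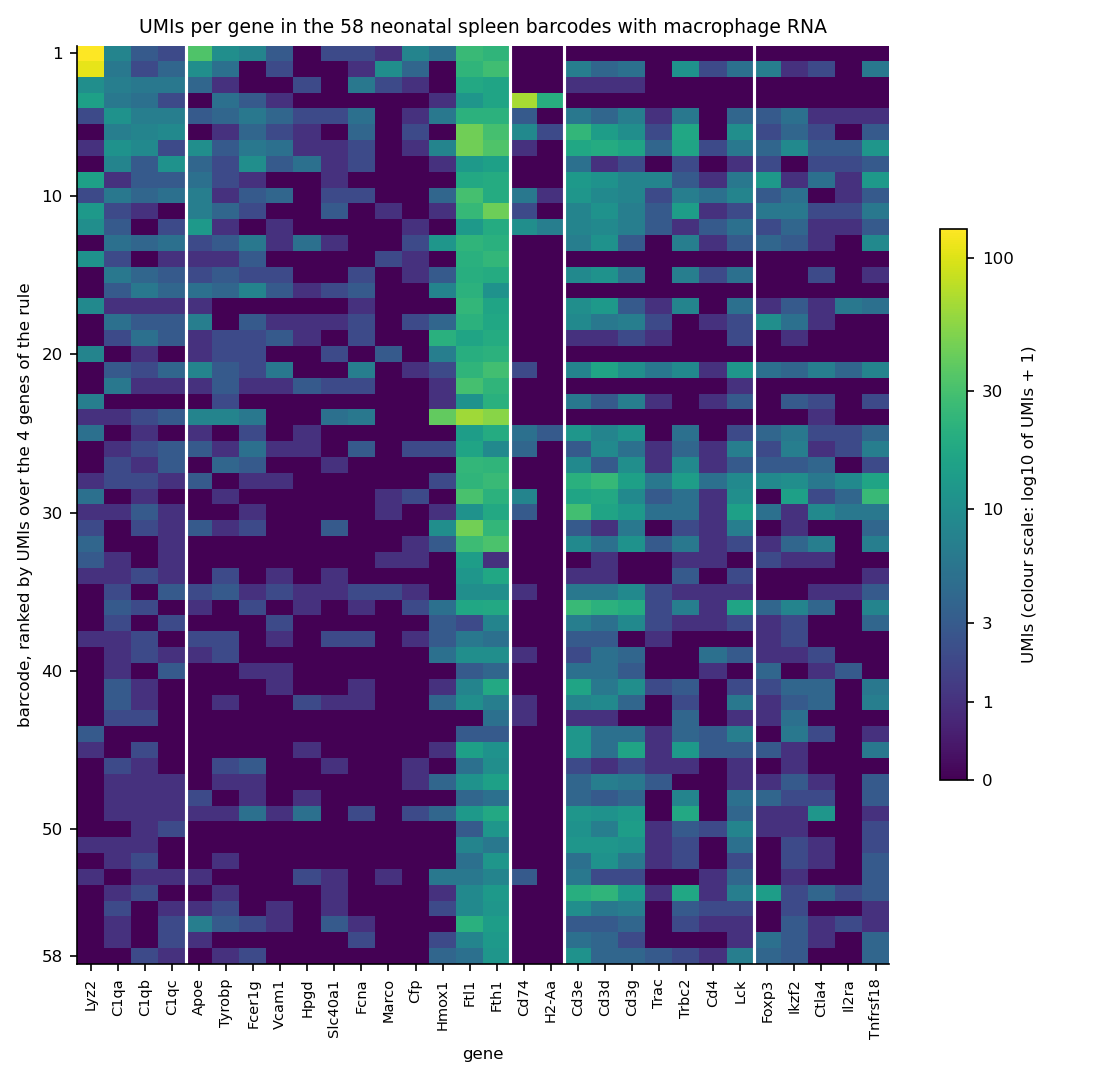
UMIs (log10 of UMIs + 1) of macrophage, MHC class II, T cell and Treg genes in each of the 58 chosen barcodes of neonatal spleen, ordered by their UMIs of the 4 genes. Each line across is 1 barcode; most hold both macrophage and T cell UMIs, and a few are empty over the T cell genes.

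Penk, Ccr7 and Ecm1 were the lowest of the genes with at least 100 CPM in the rest of neonatal spleen. Penk, which encodes proenkephalin, was at 41.8 and 236 CPM (0.177, 0.0993 to 0.293). It was counted in 5 of 58 chosen barcodes (8.62%, 2.86 to 19) and in 789 of 6120 others (12.9%). The interval of its share thus holds that of the rest, and its ratio rests on 15 UMIs in few barcodes. Ccr7, the receptor that guides cells to lymph nodes, was at 50.2 and 200 CPM (0.252, 0.149 to 0.398). It was counted in 15.5% (7.35 to 27.4) and 41.9% of barcodes. Ecm1 was at 89.3 and 204 CPM. The next 7 lowest did not pass the 2-fold limit: Bcl2, an inhibitor of cell death, had a ratio of 0.532 and Igf2r 0.536. A list of resting T cell genes came to 1448 and 1869 CPM (0.775), with 1 of 8 measured genes, Ccr7, at least 2-fold lower, and a list of effector Treg genes to 1832 and 1274 CPM (1.44), with Gzmb and Id2 higher among 7 measured. In 7-week spleen the effector list was at 2249 and 871 CPM (2.58), with Klrg1, Gzmb and Ccl5 higher and Itgae (1 UMI) lower among 7 measured of 11.

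Proliferation genes were at the level of the rest, 1821 and 1769 CPM in neonatal spleen (1.03, with 1 of 16 genes, Ccnb1, at least 2-fold higher), and interferon response genes had a ratio of 1.13.

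The barcodes of 7-week spleen were then set against those of neonatal spleen. The rule chose both groups by a fixed limit of 3 raw UMIs, at unlike depth (chosen medians of 3009 and 4834 UMIs). A shallower barcode needed a larger share of UMIs from the 4 genes to be chosen. Levels of these genes, and of genes that go with them, thus depend partly on the rule. By the same call, 110 of 3566 genes (3.08%) were higher in 7-week spleen and 974 (27.3%) lower. The 7-week barcodes held 84039 UMIs and the neonatal ones 358540, and where 10 UMIs were required at the higher level in the smaller group, 110 of 1529 (7.19%) were higher and 137 (8.96%) lower. The age of the mice and the library cannot be told apart.

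The red pulp and Kupffer cell lists had lower sums at 7 weeks, while the interval of the pan-macrophage ratio held 1. Few of their genes were called. The pan-macrophage list stood at 1951 CPM in 7-week spleen and 1821 CPM in neonatal spleen (1.07, 0.897 to 1.27), with 1 of 8 measured genes (Adgre1) at least 2-fold lower and none higher. The red pulp list stood at 654 and 1091 CPM (0.600, 0.444 to 0.797), with Hmox1 and Mrc1 lower among 6 measured, whose median log2 ratio was -0.62, against -0.39 over all genes measured. The Kupffer cell list stood at 250 CPM (21 UMIs) and 443 CPM (0.563, 0.339 to 0.891), with Timd4, Cd5l and Fcna lower among 5. With 27.3% of all genes lower, the red pulp count is near that background, and all 3 counts rest on few UMIs. C1qa was at 357 and 413 CPM, C1qb at 345 and 332 CPM, C1qc at 321 and 318 CPM and Lyz2 at 1702 and 1032 CPM. The rule bears on these levels and on those of the macrophage lists.

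Differences between the ages were also seen in the rest. Mcl1, which protects cells from death, was at 250 and 44.6 CPM in the chosen barcodes of 7-week and neonatal spleen and at 129 and 55.6 CPM in the rest of the same libraries. Rln3, a relaxin gene, was at 95.2 and 792 CPM in chosen barcodes and at 168 and 744 CPM in the rest. The proliferation list was at 845 and 1821 CPM in chosen barcodes (0.464, 0.358 to 0.593) and at 920 and 1769 CPM in the rest. Mki67, a gene of dividing cells, had 1 UMI in the 7-week barcodes and 38 in the neonatal ones. Btg1, Rsrp1, Tagap and Il7r, the interleukin-7 receptor, were the other highest genes, with ratios of 3.30, 4.72, 3.71 and 3.29, and Plp2, Pclaf and Tmpo the other lowest, each with 1 UMI at 7 weeks.

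Measures of doublets, droplets with more than 1 cell, are given as descriptions. Scrublet scores a barcode by its likeness to simulated mixtures. Its automatic threshold had not worked, so a number of highest scores set in advance was marked in each library. The share marked in the rest was thus nearly fixed and is no estimate of doublets. Marked were 2 of 58 chosen barcodes in neonatal spleen (3.45%) and 4.95% of the rest. In 7-week spleen they were 1 of 23 (4.35%) and 4.82% of the rest. No chosen barcode was marked in either liver library. Barcodes with UMIs of both Xist, a transcript of female cells, and Y-linked genes numbered 3 of 58 (5.17%, 1.08 to 14.4) in neonatal spleen, against 1.03% of the rest, and 0 of 23 in 7-week spleen, against 1.0%. The median number of UMIs in chosen barcodes and in the rest was 3738 and 2663 UMIs in 7-week liver, 3009 and 2935 in 7-week spleen, 5012 and 4444 in neonatal liver, and 4834 and 4538 in neonatal spleen. Pairs of libraries shared 316 barcode strings in all; a few of them (2 and 3, counted on either side of the pairs) were chosen in 1 library of the pair, and none was chosen in both. The part of doublets and of free RNA in the macrophage counts was not tested.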

How the data were processed

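The authors deposited whole-number UMI counts for each gene in each barcode, without normalisation. Per the file headers the counts come from Cell Ranger 4.0.0; the submitters' processing notes add the build mm10 and Seurat 4.0.2, and for the gene annotation no release was given in the sources used here. Deposited barcodes numbered 2608 in 7-week liver, 6163 in 7-week spleen, 8055 in neonatal liver and 7720 in neonatal spleen, with 7442185, 20246352, 32519356 and 33813594 UMIs. Of 32285 features, 32158 (99.6%) matched GENCODE vM21 on GRCm38 by Ensembl identifier, which gave gene positions. T cell receptor sequences were not analysed here.

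From the counts, UMIs were summed over chosen barcodes and over the rest of each library and scaled to CPM (counts per 1000000 UMIs). Shares have exact Clopper-Pearson intervals, levels exact Poisson intervals and ratios exact conditional binomial intervals, all at 95%. With 1 library per group there was no test and no p-value. A fold against 0 was set at a floor of 3 counts. Comparisons needed at least 20 chosen barcodes in a library. Of the 31 gene lists, 18 were cell type lists, 11 function lists and 2 added; 2 listed genes are not named in the files and were not used. Named genes were the 15 highest ratios over the rest (at least 25 CPM and 20 UMIs, in at least 10 barcodes), the 10 lowest among genes with at least 100 CPM in the rest, the 5 highest and 5 lowest between libraries, the 4 genes of the rule and up to 4 genes per list with most UMIs; other genes of a list were chosen for naming after their values were seen. Some genes that the rule names are not reported here. The chosen barcodes and all lists were set with earlier results of these data known.

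Scrublet as run in scanpy 1.11.5 marked 2, 0, 0 and 0 barcodes by its automatic threshold, so it had not worked, and the highest scores were marked at 0.8% per 1000 barcodes instead; marked barcodes were kept. The calls by size were tested on simulated data. Alternatives were the minimum over the 4 genes, C1q alone, no filter, no doublet-marked barcodes, no large barcodes, means per barcode, thinning, TMM factors from edgeR 4.0.16 and other minimums. Python 3.11.15, numpy 2.4.6, pandas 2.3.3, scipy 1.17.1, matplotlib 3.10.9 and R 4.3.3 were used.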

Additional observations from a re-analysis of the deposited data

Results flagged for a closer look

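Barcodes outside the limits on genes and mitochondrial UMIs also carried macrophage RNA, above the 3 barcodes that a count of 0 allows. In 7-week spleen, 5 of 139 such barcodes (3.6%, exact binomial interval 1.18 to 8.19) had at least 3 UMIs of Lyz2, C1qa, C1qb and C1qc, and in neonatal spleen 20 of 1542 (1.30%, 0.794 to 2.0). All of them had fewer than 500 genes, and none was found among 184 barcodes of 7-week liver or 2387 of neonatal liver. The 20 of neonatal spleen had a median of 692 UMIs and 419 genes. Their pan-macrophage list stood at 22506 CPM and their red pulp list at 13260 CPM, while the T cell list had 5 UMIs in all (358 CPM), and each held 2 or fewer T cell UMIs. In 7-week spleen the pan-macrophage list stood at 21528 CPM and the T cell list at 2122 CPM (7 UMIs), and 4 of the 5 held 2 or fewer T cell UMIs. Setting a minimum of 500 genes thus left out 20 barcodes of neonatal spleen with macrophage RNA and almost no T cell RNA, beside the 7 that it kept.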

How the results depend on the processing

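No paired analysis was possible because each tissue and age has 1 library, so there are no replicates to pair or to leave out. A minimum of 10 UMIs expected in the smaller group, barcodes with 3 or more T cell UMIs alone, the rest without its barcode richest in erythroid UMIs, and chosen barcodes without those that held most erythroid or MHC class II UMIs were alternatives chosen after seeing the data; the cause of each change was not tested unless the setting itself removes barcodes or genes. With at least 10 UMIs over the 4 genes, the numbers of barcodes were 5 in 7-week spleen, 2 in neonatal liver and 19 in neonatal spleen; after thinning to 1000 UMIs they were 9, 3 and 16. Neonatal spleen had 78 with no filter on genes or mitochondrial UMIs and 77 with at least 2 UMIs over the 4 genes. Neonatal spleen had the most barcodes under all 6 alternatives. The T cell list over the rest was 0.899 in 7-week spleen as a mean per barcode; in neonatal spleen it was 0.781 as a mean per barcode, 0.814 with at least 10 UMIs, 0.915 without the 5 largest barcodes and 0.765 after thinning, and stayed under 1 under every alternative run. The pan-macrophage list over the rest of 7-week spleen was 17.5 with at least 10 UMIs, 10.3 with no filter and 9.65 as a mean per barcode. In neonatal spleen it was 17.2 with at least 10 UMIs, 11.1 with C1q alone, 13.9 with no filter, 12.5 without the 5 largest barcodes, 7.46 in barcodes with 3 or more T cell UMIs, 17.9 as a mean per barcode and 15.3 after thinning. The Treg list of neonatal spleen turned to 0.902 with at least 10 UMIs, and to 0.953 both with C1q alone and as a mean per barcode.

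Counts of genes moved most. In 7-week spleen, a minimum of 10 UMIs over the 4 genes gave 45 higher and 1878 lower, a mean per barcode 1063 lower, no minimum CPM 4694 lower, and 10 UMIs expected in the smaller group 42 lower; TMM scaling gave 48 higher and 980 lower. In neonatal spleen, the lower genes numbered 551 with at least 10 UMIs, 160 with C1q alone, 188 without the 5 largest barcodes, 305 as a mean per barcode and 2895 with no minimum CPM, and TMM scaling gave 180 higher and 135 lower. Between the ages, 137 were lower with 10 UMIs expected in the smaller group. For 25 named genes, 135 of 149 values stayed within their counting interval, 14 moved and 0 turned; for 22 other list results, 84 of 146 stayed, 59 moved and 3 turned, all of the Treg list. Depth limits every gene under 10 UMIs and all liver barcodes.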
